A study of Mus musculus with 11 samples.

Results

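The 40 genes described here code for the proteins that bring new secretory and membrane proteins into the endoplasmic reticulum (ER) and send them on towards the Golgi. They were listed by name, under a rule that uses no measured value but with earlier results of these data known, out of 45260 gene identifiers that the pancreas and adipose count tables share. They fall into 7 genes of the signal recognition particle (SRP) and its receptor, 7 of the Sec61 translocon and its partners, 4 of the translocon-associated protein (TRAP) complex, 5 of the signal peptidase, 11 of the COPII coat, 3 cargo receptors and a SNARE, and 3 KDEL receptors. All 40 could be tested in the pancreas and 39 in adipose tissue, where Srp54a had almost no reads.

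A nascent secretory protein is recognised by its signal peptide. The SRP binds this peptide on the ribosome and docks at its receptor, the chain passes through the Sec61 channel with the help of the TRAP complex, and the signal peptidase cuts the peptide off. At ER exit sites the GTPase Sar1 recruits the inner coat proteins Sec23 and Sec24, which select cargo, and the outer coat of Sec13 and Sec31, and the KDEL receptors later return escaped ER proteins. The acinar cell of the pancreas, which makes and stores digestive enzymes, is a classical cell for the study of this route, whereas adipocytes secrete adipokines and lipoprotein lipase through it.

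Male wild-type C57BL/6J mice (C57BL/6 on the labels), aged 16 weeks, were used throughout. Control mice ate a chow with 10 kcal% of fat over 12 weeks and then received 2 intraperitoneal saline injections 1 h apart, and mice with obesity-related alcohol-induced acute pancreatitis (OA-AP) ate a diet with 60 kcal% of fat over the same 12 weeks and received 2 ethanol injections of 2 g/kg. Tissue was taken 12 h after the first injection, and libraries of whole pancreas (2 control, 3 OA-AP) and whole epididymal adipose tissue (3 control, 3 OA-AP) were sequenced. Diet, ethanol and pancreatitis changed together, so their shares in any difference cannot be told apart.

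The pancreas libraries held 14188832 to 17238919 counts and the adipose libraries 20825177 to 27928097. A list of 24 acinar genes took 71.4% ± 1.31 of all counts in control pancreas (SD, n = 2) and 58.6% ± 1.66 in OA-AP pancreas (n = 3). Adipose control replicate 2 held 0.965% acinar counts, and without it the adipose test below called 13 genes in place of 14. When one class of transcripts takes so much of a library, the scaling decides what counts as a change. Counts were scaled with TMM factors, which centre the fold changes of most genes, and values are given as CPM, counts relative to the scaled library size, within each tissue. The typical gene then had a log2 fold change near 0, with medians over all genes of 0.04 (pancreas) and -0.01 (adipose), but of 0.75 and -0.17 with library totals alone. A difference between the 40 genes and the median of all genes is nearly free of this choice.

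Whether OA-AP changed this machinery was asked first in the pancreas. A gene was called a DEG at an adjusted p-value under 0.05 in edgeR's quasi-likelihood test and a fold change of at least 1.5. In the pancreas 17 of the 40 genes were downregulated DEGs and 0 were upregulated, against 13.5% of the 12884 tested genes downregulated, 16.2% upregulated and 29.8% called either way. Without the fold limit, 2 of the 40 passed the test as higher and 21 as lower, and at an unadjusted p-value under 0.05 4 were higher and 23 lower. The shares of all genes under these looser rules were not counted, so these counts do not set the 40 genes apart. DESeq2 called 16 downregulated and 0 upregulated. The median log2 fold change of the 40 genes was -0.42, which lay 0.46 under the median of all genes on the log2 scale. In 32 of the 40 genes the control and OA-AP libraries did not overlap, beside 62.3% of all genes.

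These calls depended on the scaling. With library totals alone 7 of the 40 genes were downregulated and 12 upregulated, against 3.93% and 45.4% of all genes and 49.3% either way, while the median of the 40 genes still lay 0.46 under that of all genes. The 7 genes called lower under both scalings were Srp9, Sec61b, Sec61g, Tram1, Sec11c, Sec24d and Lman1. The 40 genes took 0.764% ± 0.00463 of the counts outside the acinar list in control pancreas and 0.588% ± 0.00708 in OA-AP pancreas. Of all counts they took 0.218% ± 0.00865 and 0.244% ± 0.00825. In whole tissue, fewer cells of a type and less RNA per cell cannot be told apart, and 16 of the 24 acinar genes were themselves called lower and 2 higher. Other marker sums also differed between the groups. The islet sum was 979 to 1200 CPM in control and 1353 to 1642 CPM in OA-AP pancreas (2 of 7 genes called higher), the B and plasma cell sum 13.2 to 23.4 and 6.49 to 7.27 CPM (2 of 3 tested genes called lower), and the neutrophil sum 1.20 to 1.99 and 3.6 to 103 CPM (0 of 7 tested genes called). The adipocyte sum was 30.1 to 44.8 CPM in control and 49.7 to 82.9 CPM in OA-AP pancreas (1 of 3 tested genes called higher). The mesothelial sum was 8.67 to 15.9 and 0.471 to 7.61 CPM (0 of 3 called), and the T cell sum 0.499 to 0.686 and 0 to 0.261 CPM (0 genes tested). The ductal, macrophage, fibroblast and endothelial sums overlapped between the groups. Of their tested genes 2 of 7, 1 of 9, 0 of 6 and 2 of 5 were called lower, and 1 ductal gene higher. OA-AP replicate 3 stood apart from the other OA-AP pancreas libraries. Its chi-square per degree of freedom was 53.2 and 60.2 against them, beside 13.8 between those. It was the highest of the 3 in 23 of the 40 genes, and the share over all genes was not counted. Without OA-AP replicate 3, 20 genes were called lower. The part of these cells and of this library in the values of the 40 genes was not tested.

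In adipose tissue the calls lay in the other direction. Of the 39 tested genes, 14 were upregulated DEGs and 0 were downregulated, against 12.1% of the 15839 tested genes upregulated and 13% downregulated. Without the fold limit 27 passed the test as higher, and at an unadjusted p-value under 0.05 32 were higher and 0 lower. Here too the shares of all genes under the looser rules were not counted, so these counts do not set the 39 genes apart. DESeq2 called 16 upregulated. The median log2 fold change of the 39 genes was 0.49, which lay 0.51 above the median of all genes, and 38 of the 39 fitted values were above 0. In 30 of the 39 genes the groups did not overlap, beside 52.4% of all genes.

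With library totals alone 4 of the adipose genes stayed upregulated DEGs (8.62% of all genes were upregulated and 18.2% downregulated on that scale), namely Sec61a1, Spcs3, Sec23b and Sec24d. OA-AP replicate 2 was the lowest of the 3 OA-AP libraries in 35 of the 39 genes and OA-AP replicate 3 the highest in 31. The same shares over all genes were not counted. Without OA-AP replicate 3 the test called 8 genes, with Srp19, Sec24a, Lman1, Sec22b, Kdelr2 and Kdelr3 lost, and without OA-AP replicate 2 it called 20. Marker sums of other cells moved in the same libraries. The summed level of 10 neutrophil markers was 9.82 to 16.1 CPM in control and 180 to 199 CPM in OA-AP adipose tissue, and 6 of the 7 tested were upregulated and 1 downregulated. The summed level of 8 B and plasma cell markers was 133 to 741 CPM in control and 30.4 to 129 CPM in OA-AP libraries, with 7 of 8 downregulated, and 5 of 6 fibroblast markers were downregulated. The macrophage sum ranged from 1101 to 1423 CPM in control and from 1168 to 1743 CPM in OA-AP libraries, with 3 of 9 genes upregulated and 1 downregulated. The adipocyte sum was 26345 to 26817 CPM in control and 27976 to 29866 CPM in OA-AP libraries (1 of 7 genes upregulated and 1 downregulated). The endothelial sum was 901 to 1005 and 1014 to 1458 CPM (0 of 5 called), and the T cell sum 3.68 to 8.77 and 1.81 to 3.08 CPM (2 of 4 tested downregulated). The part of these cells in the values below was not tested.

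**Figure D1:**
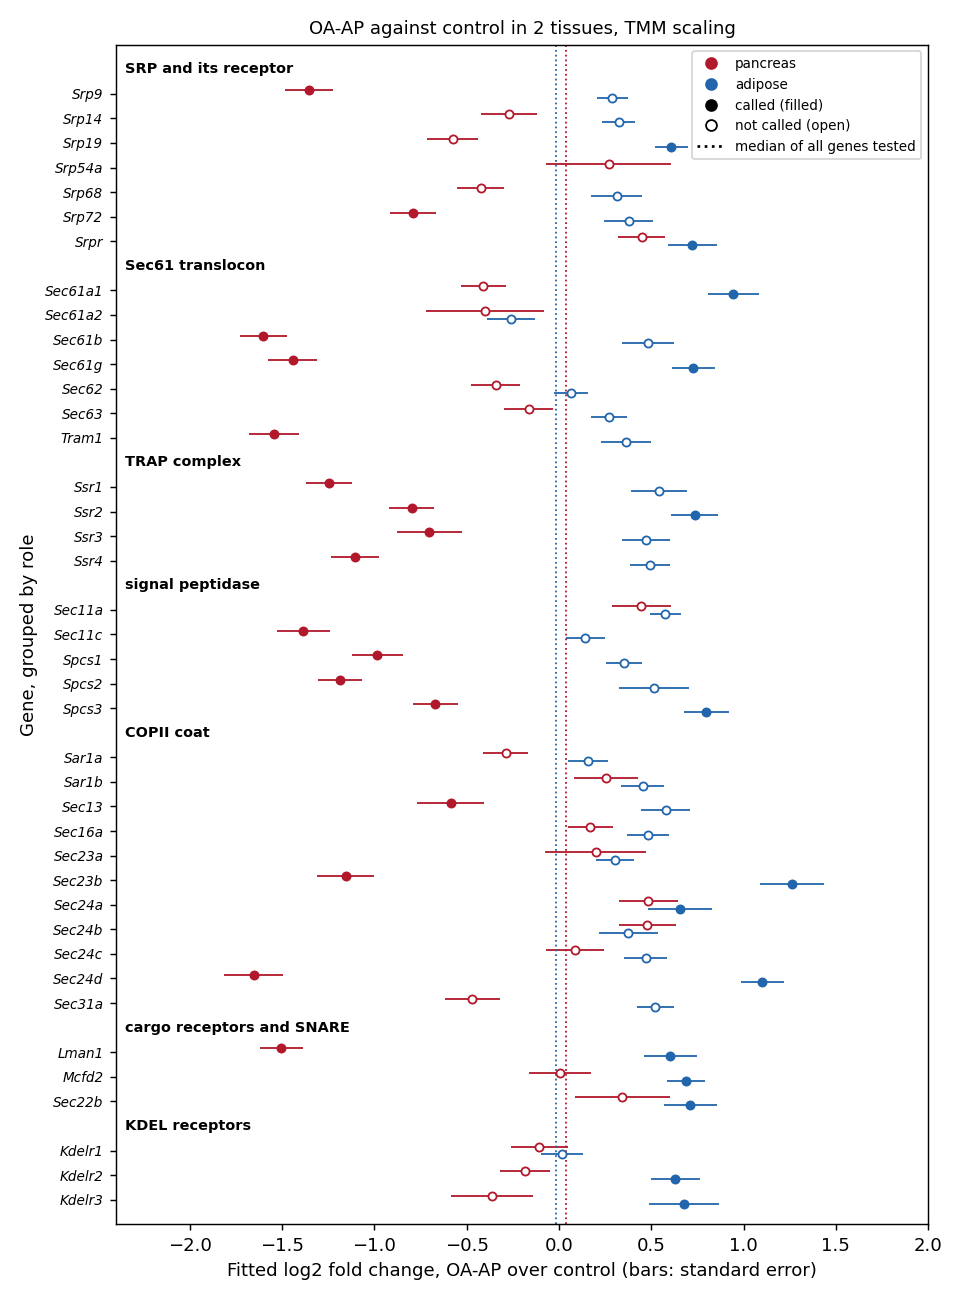
Fitted log2 fold change of OA-AP over control with its standard error for each of the 40 genes by role, in pancreas (red, 2 control and 3 OA-AP libraries) and adipose tissue (blue, 3 and 3). Filled points are DEGs, and dotted lines are the medians of all genes tested. The 17 filled red points lie between -1.66 and -0.59, and the 14 filled blue points between 0.60 and 1.26.

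In the pancreas, 2 of the 7 SRP genes were downregulated DEGs. Srp9, which with Srp14 forms the Alu domain that slows translation, stood at 85.1 and 101 CPM in the control and at 35.4, 37.2 and 36.6 CPM in the OA-AP libraries. It was 2.55-fold lower (log2 fold change -1.35 ± 0.13, SE; edgeR adjusted p = 0.000335). Its partner Srp14 stood at 15.6 and 18.7 CPM in control and at 13.6, 14.0 and 15.0 CPM in OA-AP pancreas, a log2 difference of -0.27 ± 0.15 that did not pass the test (edgeR adjusted p = 0.198). Srp72, a protein of the part of the particle that reads the signal, fell from 67.8 and 64.3 CPM to 36.9, 40.5 and 37.1 CPM, with a log2 fold change of -0.79 ± 0.12. Srp68, its binding partner, and Srp19, which joins the particle's RNA, had adjusted p-values under the threshold in the edgeR test with fold changes of 1.34 and 1.49, both under the fold limit.

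Srpr, the alpha subunit of the SRP receptor, was 1 of the 2 genes that passed the pancreas test as higher, with 234 and 228 CPM in control and 317, 293 and 335 CPM in OA-AP libraries. Its fold change of 1.36 stayed under the limit. In adipose tissue Srpr stood at 140, 141 and 136 CPM in control and at 248, 188 and 251 CPM in OA-AP libraries and was a DEG with a fold change of 1.65 (edgeR adjusted p = 0.00614). Srp19 was the other adipose DEG of this group, at 25.8, 26.1 and 24.6 CPM against 39.0, 36.3 and 41.4 CPM, a fold change of 1.53. Srp9 and Srp14 had log2 fold changes of 0.29 ± 0.08 and 0.32 ± 0.09 there, and both passed the test under the fold limit. Srp54a, which codes for the GTPase of the particle, has near-identical neighbouring copies. Its own identifier was the same in both tissues, but the symbol of the copy Srp54b stood for different identifiers. With such copies, its level of 2.49 to 4.81 CPM in the pancreas and 0 or 1 count in adipose libraries is uncertain.

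The small subunits of the Sec61 channel were among the most reduced genes in the pancreas. Sec61b, the beta subunit (ENSMUSG00000053317, GRCm38 chr4:47474658-47483242, + strand), stood at 84.1 and 96.6 CPM in control and at 29.7, 31.3 and 28.3 CPM in OA-AP libraries. It was 3.03-fold lower (edgeR adjusted p = 0.000182). Sec61g, the gamma subunit, fell from 37.5 and 41.8 CPM to 13.7, 15.0 and 15.0 CPM, a 2.72-fold difference. Sec61a1, the subunit that forms the pore, fell much less, from 101 and 108 CPM to 74.1, 81.6 and 80.6 CPM, which is a 1.33-fold difference under the fold limit (edgeR adjusted p = 0.0347). Tram1, a membrane protein that contacts the chain beside the channel, was 2.92-fold lower, with 200 and 199 CPM in control and 61.8, 77.3 and 66.2 CPM in OA-AP libraries. Sec62 and Sec63, which serve chains that enter after their synthesis, had log2 fold changes of -0.34 ± 0.13 and -0.16 ± 0.13 and were not DEGs.

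Sec61a1 had the largest fitted increase of the translocon genes in adipose tissue, at 105, 96.9 and 102 CPM in control and 207, 158 and 221 CPM in OA-AP libraries, a fold change of 1.92 (edgeR adjusted p = 0.00282). Sec61g rose 1.66-fold, from 13.7, 16.4 and 15.0 CPM to 25.6, 22.4 and 26.8 CPM. Sec61b, at 32.2, 30.2 and 27.4 CPM in control and 42.2, 34.1 and 49.0 CPM in OA-AP libraries, passed the test at a fold change of 1.40, under the limit. Tram1, Sec63 and Sec62 had fold changes of 1.29, 1.21 and 1.05 and did not pass it. Sec61a2, a second gene for the alpha subunit, had the only fitted value below 0 among the 39 adipose genes (log2 fold change -0.26 ± 0.13; edgeR adjusted p = 0.154). Its span overlaps Nudt5 on the opposite strand, whose mean count was 126% of its own in pancreas and 146% in adipose libraries. The strand setting of the counting is not given in the sources used here, so the share of Nudt5 reads in its value is uncertain.

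All 4 TRAP genes were downregulated DEGs in the pancreas. Ssr4, the delta subunit, stood at 223 and 268 CPM in control and at 109, 113 and 119 CPM in OA-AP libraries, 2.15-fold lower (edgeR adjusted p = 0.000809). Ssr1, the alpha subunit, fell 2.37-fold, from 114 and 112 CPM to 44.2, 48.5 and 50.6 CPM. Ssr2, the beta subunit, stood at 50.5 and 52.6 CPM in control and at 28.1, 31.1 and 29.7 CPM in OA-AP libraries. Ssr3, the gamma subunit, was the least even, since OA-AP replicate 3 held 107 CPM beside 74.8 and 74.5 CPM in the others, under control levels of 137 and 141 CPM, and its call was lost without either control library or without OA-AP replicate 1. In adipose tissue all 4 passed the test as higher, but Ssr2 was the one DEG, with 89.5, 79.3 and 84.9 CPM in control and 148, 118 and 157 CPM in OA-AP libraries, a fold change of 1.67. The other 3 had fold changes of 1.46, 1.38 and 1.41. With library totals none of the 4 was called in either tissue, at log2 values of -0.54 to -0.01 in the pancreas and 0.32 to 0.58 in adipose tissue.

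The signal peptidase has 2 alternative catalytic subunits, Sec11a and Sec11c, and 3 accessory ones. Sec11c was by far the more abundant catalytic subunit in control pancreas, with 52.1 against 2.73 CPM per kilobase of gene model. It fell 2.61-fold, from 152 and 169 CPM to 53.0, 67.3 and 64.3 CPM (log2 fold change -1.39 ± 0.14; edgeR adjusted p = 0.000467). Sec11a stood at 11.5 and 13.7 CPM in control and at 18.7, 16.5 and 16.1 CPM in OA-AP libraries, with no overlap, and did not pass the test (log2 fold change 0.45 ± 0.16; edgeR adjusted p = 0.0633). The accessory genes Spcs1, Spcs2 and Spcs3 were all downregulated DEGs, with log2 fold changes of -0.99, -1.19 and -0.67. The call of Spcs3 was lost without either control library (edgeR adjusted p = 0.0648 and 0.0517). The most reduced of them, Spcs2, stood at 78.9 and 84.9 CPM in control and at 35.2, 36.6 and 36.0 CPM in OA-AP libraries. Spcs1 overlaps Glt8d1 on the other strand, which held 10.5% of its mean count in the pancreas and 60.7% in adipose tissue. In adipose tissue Spcs3, a subunit needed for cleavage, was the one DEG of the group, at 47.1, 53.0 and 50.3 CPM in control and 84.4, 75.7 and 101 CPM in OA-AP libraries (fold change 1.74). Sec11a reached 1.49-fold with an adjusted p-value of 0.00278 in the edgeR test, and Sec11c had a log2 fold change of 0.14 ± 0.11 with overlapping groups and did not pass the test.

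**Figure D2:**
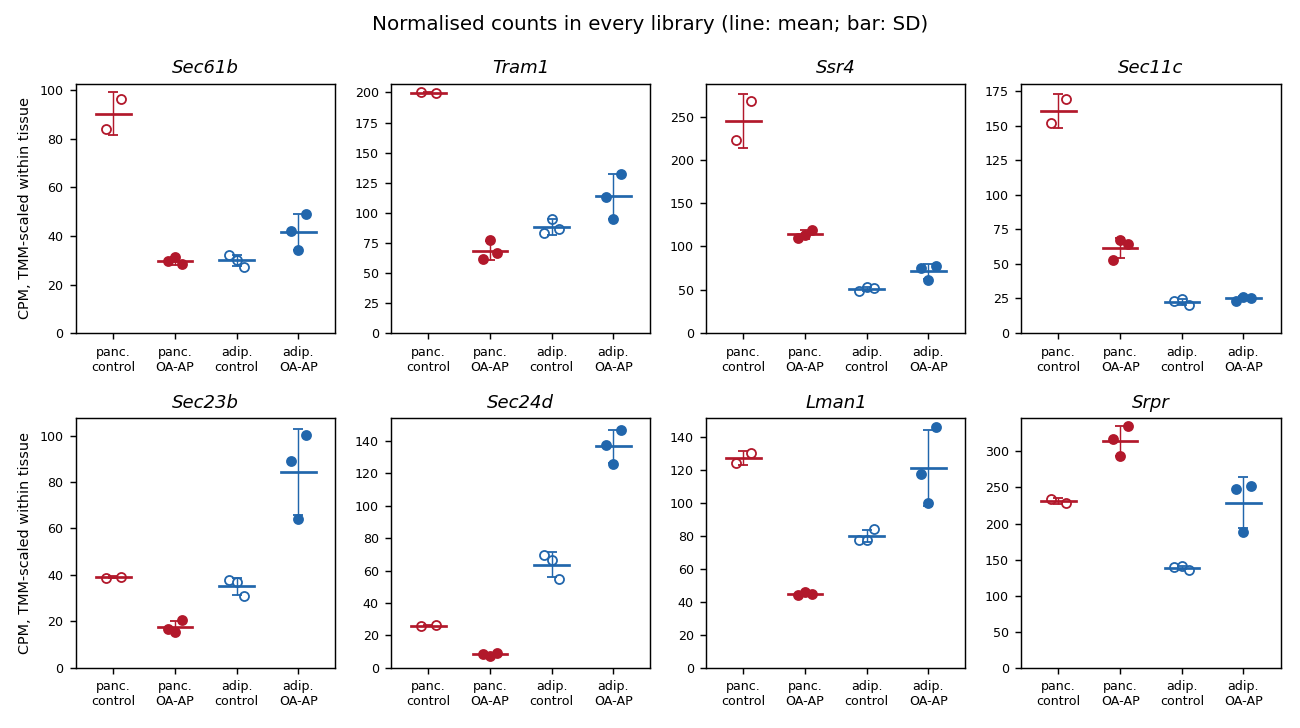
CPM, scaled with TMM factors within each tissue, in every library for 8 genes, with the mean (line) and SD (bar) of each group (red pancreas, blue adipose; open control, filled OA-AP). The red OA-AP points lie under the control points in 7 panels and above them for Srpr. The blue OA-AP points lie above the control points in 6 panels, and overlap them for Tram1 and Sec11c.

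The COPII coat held both the largest decrease and the largest increase of the set. Sec24d, one of 4 Sec24 genes (ENSMUSG00000039234, GRCm38 chr3:123267455-123365641, + strand), stood at 25.8 and 26.3 CPM in control and at 8.77, 7.04 and 9.0 CPM in OA-AP pancreas. It was 3.15-fold lower (log2 fold change -1.66 ± 0.16; edgeR adjusted p = 0.000332). In adipose tissue it rose 2.15-fold, from 69.7, 66.4 and 55.0 CPM to 138, 126 and 146 CPM (log2 fold change 1.10 ± 0.12; edgeR adjusted p = 0.00108). In neither tissue did the groups come near each other.

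Sec23b, one of 2 genes for the inner coat protein Sec23 (ENSMUSG00000027429, GRCm38 chr2:144556229-144590749, + strand), followed the same course. In the pancreas it stood at 38.7 and 39.3 CPM in control and at 16.5, 15.6 and 20.4 CPM in OA-AP libraries, 2.23-fold lower (edgeR adjusted p = 0.00129). In adipose tissue it rose 2.40-fold, from 37.7, 36.9 and 30.9 CPM to 88.9, 64.0 and 100 CPM (log2 fold change 1.26 ± 0.17; edgeR adjusted p = 0.00249). With library totals it passed the pancreas test at a log2 fold change of -0.45, under the fold limit, and remained an adipose DEG.

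The other coat genes moved less. Sec13, of the outer coat and also of the nuclear pore, was the third coat DEG in the pancreas, at the edge of the fold limit, with 24.9 and 34.6 CPM in control and 19.7, 17.6 and 22.0 CPM in OA-AP libraries (log2 fold change -0.59 ± 0.18; edgeR adjusted p = 0.0378). DESeq2 did not call it, its log2 fold change was 0.13 with library totals, and without any 1 library it ranged from -0.80 to -0.33, with the call lost without control replicate 2, OA-AP replicate 1 or OA-AP replicate 2. Sec31a, its partner, passed the pancreas test at 1.38-fold lower and the adipose test at 1.43-fold higher. Sec24a, Sec24b, Sec16a, Sec23a, Sar1b and Sec24c had fitted log2 values of 0.09 to 0.48 in the pancreas and none was a DEG. Sar1a, the main Sar1 gene per kilobase in both tissues, had log2 fold changes of -0.29 ± 0.12 and 0.16 ± 0.11. Sec24b was the second gene that passed the pancreas test as higher, at 16.0 and 17 CPM in control and 23.9, 20.1 and 24.7 CPM in OA-AP libraries. In adipose tissue Sec24a was the third coat DEG, with 39.0, 40.3 and 44.0 CPM in control and 74.0, 47.4 and 73.0 CPM in OA-AP libraries, of which replicate 2 lay close to the controls, and the call was lost without any one of the other 5 libraries. Sec24a and Sar1b lie head to head on chromosome 11 with 53 bases between their starts, and their log2 fold changes were 0.48 and 0.26 in OA-AP pancreas and 0.66 and 0.45 in OA-AP adipose tissue.

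Lman1, also called ERGIC-53, is the lectin that carries coagulation factors and other glycoproteins out of the ER together with its soluble partner Mcfd2. In the pancreas Lman1 fell 2.84-fold, from 124 and 130 CPM to 43.9, 45.7 and 44.8 CPM (log2 fold change -1.51 ± 0.12; edgeR adjusted p = 0.000163). Mcfd2, at 200 and 234 CPM in control and 201, 190 and 261 CPM in OA-AP libraries, overlapped between groups with a log2 fold change of 0.01 ± 0.17. In adipose tissue both were upregulated DEGs, Lman1 at 77.4, 77.7 and 84.1 CPM against 117, 99.9 and 146 CPM (fold change 1.52) and Mcfd2 at 86.6, 95.5 and 90.8 CPM against 155, 131 and 154 CPM (fold change 1.61). The adipose call of Lman1 was lost with library totals, without OA-AP replicate 3 (log2 fold change 0.45) and without control replicate 1 (edgeR adjusted p = 0.0538). Sec22b, a SNARE of the ER to Golgi step, rose 1.64-fold in adipose tissue, from 49.0, 42.9 and 40.1 CPM to 65.3, 64.5 and 86.5 CPM, and did not pass the test in the pancreas, where its OA-AP libraries held 31.1, 25.0 and 47.3 CPM.

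None of the 3 KDEL receptor genes was a DEG in the pancreas, where their log2 fold changes were -0.11 ± 0.16, -0.18 ± 0.14 and -0.36 ± 0.22 for Kdelr1, Kdelr2 and Kdelr3. In adipose tissue Kdelr2 rose 1.55-fold, from 54.9, 51.9 and 52.1 CPM to 84.1, 66.5 and 95.6 CPM. Kdelr1 stood at 140, 125 and 144 CPM in control and at 138, 124 and 152 CPM in OA-AP adipose tissue, a log2 difference of 0.02 ± 0.11 with overlapping groups. Kdelr3 was called at a log2 fold change of 0.68 ± 0.19, from 9.08, 5.85 and 7.28 CPM to 10.9, 11.2 and 13.5 CPM. Its call was lost without control replicate 2, control replicate 3 or OA-AP replicate 3 (edgeR adjusted p = 0.0684, 0.0857 and 0.0945). Its span overlaps Ddx17 on the opposite strand, whose mean count was 1580% of its own in the pancreas and 3700% in adipose tissue, so its values are uncertain. The span of Srpr likewise overlaps Foxred1, Tirap and Fam118b. They held 2.85%, 3.55% and 2.72% of its count in the pancreas, and 23.0%, 12.8% and 5.41% in adipose tissue, so its adipose value is uncertain too.

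Whether the change differed between tissues was tested on all 11 libraries together, as the pancreas change minus the adipose change. In 25 of the 40 genes this difference passed the test, lower in the pancreas in all 25, against 10.8% of 17046 genes lower, 10.5% higher and 21.3% either way. The largest differences on the log2 scale were -2.75 ± 0.19 for Sec24d, -2.41 ± 0.24 for Sec23b, -2.16 ± 0.16 for Sec61g, -2.09 ± 0.19 for Lman1, -2.07 ± 0.19 for Sec61b and -1.90 ± 0.20 for Tram1. All 4 TRAP genes, 4 of 5 signal peptidase genes, 5 of 7 SRP genes and 4 of 7 translocon genes were among the 25, but 4 of 11 coat genes. The median difference lay 1.06 under the median of all genes on the log2 scale, and 1.04 under it with library totals. With library totals the calls became 14 lower and 8 higher, against 2.3% and 36.8% of all genes and 39.1% either way. Both tissues' own comparisons called 6 genes in opposite directions, namely Sec61g, Ssr2, Spcs3, Sec23b, Sec24d and Lman1, each lower in the pancreas and higher in adipose tissue. This was 15.4% of the 39 genes tested in both, beside 0.81% of 11977 genes, but with library totals Sec24d alone had both calls (2.56% beside 0.117%). Of the 39, 14 were DEGs in neither tissue (35.9%, beside 55.5% of genes), and 18 with library totals (46.2%, beside 37.2%).

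**Figure D3:**
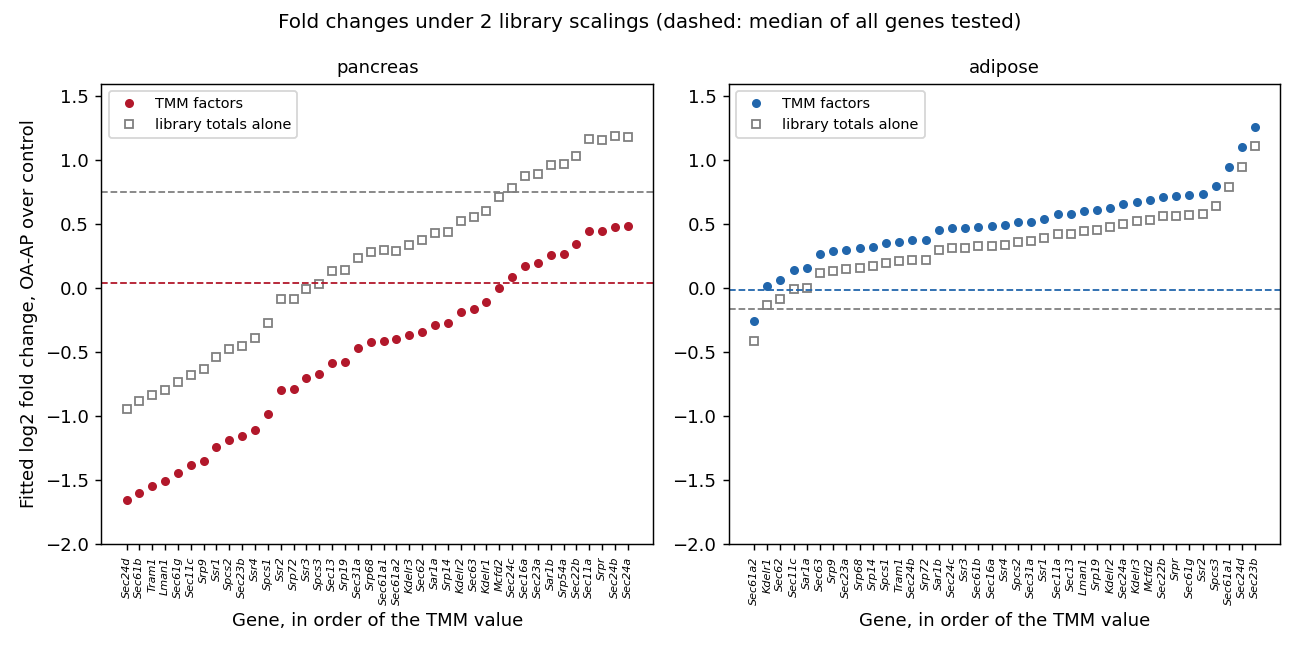
Fitted log2 fold change of OA-AP over control for each gene in pancreas (left, 40 genes) and adipose tissue (right, 39 genes), under TMM factors (filled) and library totals alone (open grey), in the order of the TMM value. Dashed lines are the medians of all genes under each scaling. Both the points and the lines shift together, the pancreas line from 0.04 to 0.75 and the adipose line from -0.01 to -0.17.

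The resting levels of the set differ between a gland and fat. Between control pancreas and control adipose tissue 32 of the 40 genes were called higher and 3 lower in the pancreas, against 26% and 29.4% of 17046 genes (55.5% either way), but with library totals 7 were higher and 23 lower, against 6.69% and 83.5% of all genes and 90.2% either way. Values are therefore given relative to the median of all genes, where the 40 genes lay 1.57 higher in the pancreas on the log2 scale under TMM factors and 1.56 higher under library totals. This distance depended on the tool and on the genes kept. It was 1.01 with DESeq2, 1.20 with 10 counts in every sample and 1.92 without a filter on low counts. The folds relative to that median share this dependence. Leaving aside Srp54a with its near absence of adipose reads, Sec11c was 32.3-fold, Ssr4 22.0-fold, Sec61b 13.8-fold, Sec61g 12.1-fold, Mcfd2 10.9-fold and Tram1 10.4-fold higher in control pancreas relative to that median. Sec23a, Sec61a2 and Sec24b were lower there, at 0.394, 0.557 and 0.642 of the adipose level. Within control pancreas Mcfd2, Ssr4, Sec61b and Srpr were the most abundant of the 40 per kilobase (83.0, 79.2, 71.1 and 68.7 CPM per kilobase), all at or above the 98th percentile of tested genes, with Srpr at the 98.2 percentile and Mcfd2 at 98.4. In control adipose tissue Kdelr1 (72.6 CPM per kilobase) and Ssr3 (67.5) led.

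Ratios of related genes within one library do not depend on scaling, and 8 pairs were compared in each tissue. Per kilobase Sec24c exceeded Sec24d 1.77- and 1.58-fold in the control and 4.83-, 6.00- and 6.05-fold in the OA-AP pancreas libraries. In adipose tissue the same ratio was 1.5, 1.47 and 1.94 in control and 1.06, 0.976 and 1.08 in OA-AP libraries. The groups did not overlap in either tissue, and the OA-AP ratios were the higher in the pancreas and the lower in adipose tissue.

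Sec23b exceeded Sec23a 6.76-fold on average in control and 2.66-fold in OA-AP pancreas, a log2 change of 1.35 in the ratio of Sec23a to Sec23b. In adipose tissue Sec23a exceeded Sec23b 1.93-fold in control, and the ratio was 1.00 in OA-AP libraries, which spread from 0.851 to 1.27. Sec11c exceeded Sec11a 19.2-fold in control and 5.36-fold in OA-AP pancreas. In adipose tissue Sec61a1 over Sec61a2 was 2.52 in control and 5.73 in OA-AP libraries and Kdelr1 over Kdelr2 was 2.50 and 1.65, while Sec24a over Sec24b in the pancreas was 0.368 and 0.371, with overlapping groups. In 4 of 8 pancreas pairs and 7 of 8 adipose pairs the groups did not overlap. For single genes the share without overlap was already 62.3% (pancreas) and 52.4% (adipose). Ratios of other gene pairs were not compared, so these counts do not set related pairs apart. None of the 16 ratios passed the two-sided exact permutation test, because 2 against 3 samples cannot go below p = 0.2 and 3 against 3 cannot go below p = 0.1 (adjusted 0.291 and 0.229).

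**Figure D4:**
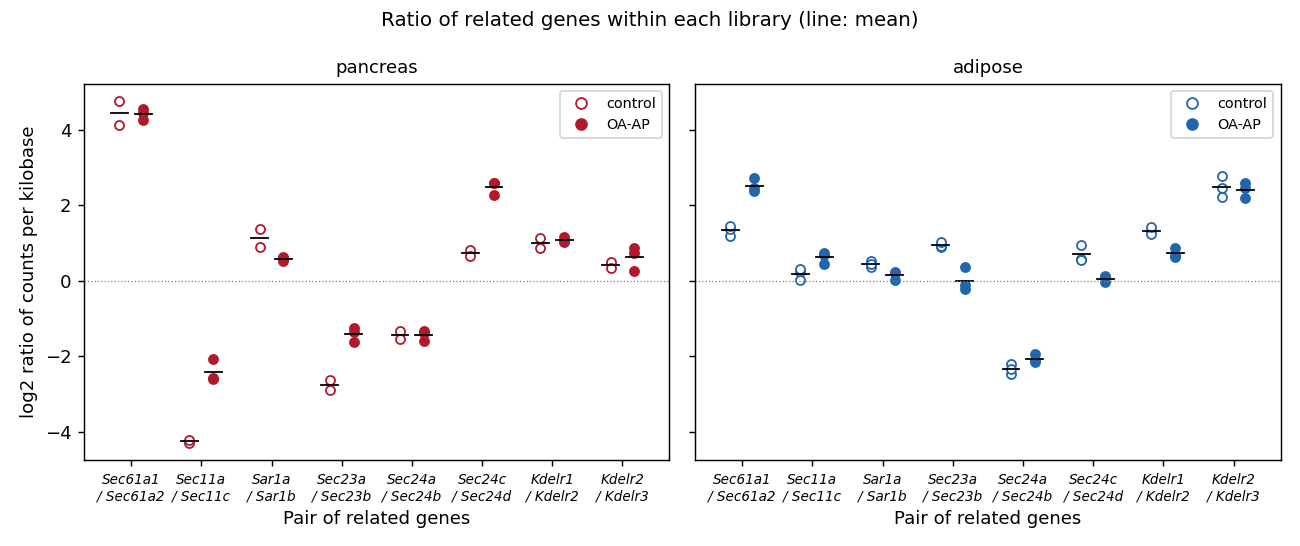
Log2 ratio of counts per kilobase of 2 related genes within each library, in pancreas (left) and adipose tissue (right), with control open, OA-AP filled and the group mean as a line. The mean for Sec24c over Sec24d is 0.74 in control and 2.48 in OA-AP pancreas, and 0.70 and 0.06 in adipose tissue.

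The other genes of the early secretory route were taken from a list of 77 names. In the pancreas 26 were downregulated and 3 upregulated DEGs, beside 13.5% and 16.2% of all genes. With library totals 3 were lower, a share near the 3.93% of all genes, and 28 higher, beside 45.4%. The median of the 77 genes stayed 0.51 (TMM factors) and 0.50 (library totals) under that of all genes on the log2 scale. The oligosaccharyltransferase, which attaches N-glycans in the ER, had 9 of 12 genes downregulated, among them Ostc (30.4 ± 1.6 CPM in control and 9.61 ± 0.113 in OA-AP libraries; SD, n = 2 and 3) and Tmem258, whereas of its alternative catalytic subunits Stt3b was 1 of the 3 upregulated genes (log2 fold change 0.60 ± 0.12) and Stt3a was not a DEG (0.15 ± 0.13). Bet1, a SNARE of the ER to Golgi step, fell from 35.1 ± 4.44 to 12.1 ± 1.18 CPM. The most increased of the 3 upregulated genes was Ncln, a translocon accessory gene. It rose from 25.8 ± 2.08 to 56.2 ± 0.863 CPM (log2 fold change 1.13 ± 0.13), and the cargo adaptor Cnih4 had a log2 fold change of 0.76 ± 0.25. In adipose tissue 10 of 75 tested genes were upregulated, a share near the 12.1% of all genes, and 3 downregulated, beside 13%. With library totals 4 were upregulated and 4 downregulated, beside 8.62% and 18.2% of all genes. The TMM calls had Mmgt1 of the ER membrane complex, Ostc (30.5 ± 1.55 CPM in control and 59.2 ± 10.4 in OA-AP libraries) and the cargo adaptor Tmed9 as the most increased. Emc9, Lman2l and Sec31b were the 3 that fell.

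Genes that control this machinery were read beside it. In the pancreas Bhlha15 (Mist1), a transcription factor of mature acinar cells, fell from 287 ± 49.7 to 42.8 ± 16.4 CPM (log2 fold change -2.74 ± 0.32; edgeR adjusted p = 0.00144). Creb3l1 (OASIS), a factor of the ER membrane that activates secretory pathway genes, fell from 31.2 ± 2.20 to 4.43 ± 1.37 CPM in that tissue and rose from 28.5 ± 2.21 to 124 ± 37.1 CPM in adipose tissue (log2 fold changes -2.82 ± 0.23 and 2.12 ± 0.22). Xbp1, the factor that the IRE1 sensor activates by splicing its mRNA, rose in both, from 399 ± 12.7 to 781 ± 239 CPM and from 303 ± 51.1 to 1051 ± 278 CPM. Gene counts do not separate its spliced form. Of the 10 control genes listed, the pancreas had 3 upregulated and 3 downregulated, and adipose tissue 5 upregulated and 0 downregulated, which with library totals became 5 and 2, and 4 and 0. Atf6, a sensor of ER stress, was called lower in the pancreas (69.9 ± 0.164 to 35.2 ± 4.22 CPM) and Creb3 higher (13.1 ± 0.835 to 24.9 ± 2.93 CPM), and the third higher gene, Creb3l3, stood at 0.143 ± 0.0803 CPM in control and 1.15 ± 0.465 CPM in OA-AP libraries. In adipose tissue Atf6 and Creb3 passed the edgeR test as higher, under the fold limit (log2 fold changes 0.57 ± 0.08 and 0.57 ± 0.11). The shares over all genes were those given above for each tissue and scaling.

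Promoters of 31 of the 40 genes were matched by symbol in RefSeq (GRCm38.p6, 250 bases before to 50 after each start) and searched on both strands. The core of the unfolded protein response element, TGACGTGG, was found in 3 of the 31 (9.68%), Sec24d, Sec23a and Kdelr3, and in 0.714% of 27025 genes. It was also found in 6 of 69 matched genes of the list of other route genes (8.7%). The ER stress elements ERSE and ERSE-II and the cAMP response element TGACGTCA had 0 matches in the 31 and were found in 0.137%, 0.0444% and 2.03% of all genes. The 3 matches are shown, each within 30 bases in the direction of the gene and with the core, or its reverse complement in Kdelr3, in capitals.
Sec24d (chr3:123267459-123267488, + strand): gcccgggcgccTGACGTGGcactagcaacc
Sec23a (chr12:59011993-59012022, - strand): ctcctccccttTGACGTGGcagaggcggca
Kdelr3 (chr15:79516367-79516396, + strand): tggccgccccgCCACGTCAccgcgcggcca
The Sec24d core begins 26 bases before the RefSeq start, which is 15 bases inside the gene as the count table gives it, and the Kdelr3 core lies 30 bases before its start. In Sec23a it begins 6 bases after the start. Sec24d, with this core, was lower in OA-AP pancreas and higher in OA-AP adipose tissue, and Sec23a was a DEG in neither. Kdelr3 was called in adipose tissue, with the reservations about Ddx17 and about single libraries given above. A match describes the letters of these windows and nothing about binding.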

How the data were processed

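RNA was sequenced from pancreas and epididymal adipose tissue in 11 libraries. The authors trimmed reads with Trim Galore 0.6.6, checked them with fastp 0.20.1, mapped them to GRCm38 with STAR and counted them with featureCounts 2.0.1. They deposited whole-number counts per gene, 54532 genes for the pancreas and 46078 for adipose tissue. The annotation release and strand setting are not given in the sources used here, and 3441 shared identifiers carry another symbol in the other table. Gene lengths are those deposited with the pancreas table.

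Samples were grouped by their labels. The members and lists were chosen with earlier results of these data known. All 40 members could be named, with values by library for those called and for related pairs, and of other route genes the 3 most increased and 3 most decreased DEGs per tissue and the regulators. Genes were filtered with filterByExpr, scaled by TMM and tested with edgeR 4.0.16 (quasi-likelihood, robust; R 4.3.3), Benjamini-Hochberg over all genes, each tissue apart and as 4 groups for tissue differences (17046 genes). The SE was the log2 fold change over the square root of F. Ratios were tested with scipy 1.17.1. The code was tested on simulated data.

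The lowest chi-square per degree of freedom between replicates was 7.56, so no library was counted as a repeat. Labels do not tie libraries to separate animals, so p-values measure the spread between these samples. Counts without molecular identifiers give counting precision only. Alternatives were DESeq2 1.42.0, its size factors, library totals, TMM without acinar genes, 2 other count filters, other fold limits, each library left out and the replicate block. Promoters came from RefSeq tables, and protein sequences were not used here.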

Additional observations from a re-analysis of the deposited data

Results flagged for a closer look

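The change with OA-AP differed between pancreas and adipose tissue in 25 genes by edgeR's test of the difference itself, and in each the pancreas value was the lower. All values are log2 differences, pancreas change minus adipose change, over 11 libraries. In the SRP they were -1.63 for Srp9, -0.58 for Srp14, -1.17 for Srp19, -0.72 for Srp68 and -1.16 for Srp72. In the translocon they were -1.34 for Sec61a1, -2.07 for Sec61b, -2.16 for Sec61g and -1.90 for Tram1. The TRAP genes had -1.78 for Ssr1, -1.52 for Ssr2, -1.16 for Ssr3 and -1.58 for Ssr4. The signal peptidase had -1.52 for Sec11c, -1.33 for Spcs1, -1.69 for Spcs2 and -1.46 for Spcs3. In the coat the values were -1.15 for Sec13, -2.41 for Sec23b, -2.75 for Sec24d and -0.98 for Sec31a. Lman1 had -2.09, Mcfd2 -0.67, Kdelr2 -0.80 and Kdelr3 -1.03. With library totals the values of Srp14, Srp68, Mcfd2 and Kdelr2 were above 0.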

How the results depend on the processing

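With library totals alone the pancreas test called 12 genes higher and 7 lower (median log2 0.29), the adipose test 4 higher, the tissue difference 8 higher and 14 lower, and the control tissues 7 higher and 23 lower. Pancreas log2 values that changed sign with totals were 0.44 for Srp14, 0.14 for Srp19, 0.28 for Srp68, 0.30 for Sec61a1, 0.29 for Sec61a2, 0.38 for Sec62, 0.56 for Sec63, 0.034 for Spcs3, 0.43 for Sar1a, 0.13 for Sec13, 0.23 for Sec31a, 0.61 for Kdelr1, 0.53 for Kdelr2 and 0.34 for Kdelr3, and in adipose tissue -0.087 for Sec62, -0.0071 for Sec11c and -0.13 for Kdelr1. Tissue differences that changed sign were 0.27 for Srp14, 0.12 for Srp68, 0.58 for Srpr, 0.70 for Sec61a2, 0.46 for Sec62, 0.43 for Sec63, 0.74 for Sec11a, 0.42 for Sar1a, 0.65 for Sar1b, 0.54 for Sec16a, 0.74 for Sec23a, 0.68 for Sec24a, 0.46 for Sec24c, 0.17 for Mcfd2, 0.47 for Sec22b, 0.74 for Kdelr1 and 0.043 for Kdelr2. The sign changes follow from the shift of all genes, given in the report. With no fold limit 2 genes were higher and 21 lower in the pancreas, and 27 were higher in adipose tissue. A fold limit of 2 left 11 lower genes in the pancreas and 2 higher genes in adipose tissue. The shares of all genes at these limits were not counted. DESeq2 called 16, 16 and 28 genes in the pancreas, in adipose tissue and for the tissue difference.

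Leaving out 1 library at a time gave 14 to 20 pancreas calls (median -0.56 to -0.37, the former without OA-AP replicate 3), 8 to 20 adipose calls (8 without OA-AP replicate 3; median 0.42 to 0.59), 21 to 26 tissue differences and 34 to 35 control calls. Genes near 0, and not called, changed sign. Without 1 library Mcfd2 ranged from -0.195 to 0.12 in the pancreas (-0.026 with DESeq2 size factors, -0.14 with the replicate block), Sec24c from -0.092 to 0.17 (-0.043 with the replicate block), Srp54a from -0.0025 to 0.60, Sec22b from -0.0015 to 0.52 and Kdelr1 from -0.26 to 0.073. In adipose tissue Kdelr1 ranged from -0.055 to 0.095 (-0.0074 without a filter and -0.0014 with 10 counts in every sample). Tissue differences ranged from -0.39 to 0.19 for Sec61a2, from -0.24 to 0.069 for Sec23a and from -0.26 to 0.053 for Kdelr1. The cause was not tested.

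Same-numbered libraries did not deviate together in every pair (correlations from -0.16 to 0.09). With 2 or 3 libraries per group, these correlations cannot decide whether same-numbered libraries came from the same animal. The main tests did not pair them. The replicate block gave 17 pancreas, 14 adipose and 20 tissue difference calls. With 2 control pancreas libraries and 3 in each other group, no p-value for related pairs could pass the threshold.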
